A study of Oryza sativa with 40 samples.

Results

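Rice leaves of 2 kinds were compared in the middle of the dark period, at 24 h and 28 h of the sampling (midnight and 4 am). The samples numbered 5 and 6 of the tissues labelled Flag leaf and seedling leaf were taken, with both biological replicates of each, which gave 8 of the 40 arrays of the series, 4 per tissue. Of the 57194 rice probe sets on the array, 24138 had a mean signal of at least 100 over these 8 arrays and were tested.

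All plants were Oryza sativa subsp. japonica var. Nipponbare with no transgene or treatment. The seedling leaves came from 17-day-old plants kept on wet filter paper in a greenhouse, with days of 28 °C and nights of 25 °C. The flag leaves came from 3-month-old plants that had grown in a field and were then moved into a greenhouse, with days of 32 °C and nights of 30 °C. Both tissues had 12 h of light and 12 h of dark. Organ, plant age, root medium, field history and temperature therefore differed together between the groups, and their parts in any difference cannot be told apart. The labels call the replicates biological but do not say how many plants each held, so the p-values below measure the spread between these samples.

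The flag leaf is the last leaf a rice shoot makes before the panicle, and it supplies much of the carbon that fills the grain. A seedling shoot, in contrast, still makes and expands new leaves, whose cells lay down primary and then secondary walls. Grasses take up iron by secreting chelators built from nicotianamine, so nicotianamine synthases and metal transporters follow the iron status of a plant. In the dark, the circadian clock genes that are active in the evening fall and those of the morning begin to rise.

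The study followed both tissues over 10 time points, 4 h apart from 8 h to 44 h, to find transcripts with a daily rhythm. Between replicate arrays of the night samples, Pearson's r of log2(signal + 32) across rice probe sets was 0.974 to 0.979, and between tissues it was 0.750 to 0.816, where probe sets are not independent replicates. The mean signal of an array was 753 to 773 in flag and 696 to 722 in seedling leaves, with medians of 49.3 to 58.4 and 56.1 to 66.2. The 6 green leaf markers summed to 74316 to 81426 on the flag arrays and to 38052 to 54326 on the seedling arrays, and 1 of them lay below the array median throughout. Most of these sums came from OsrcaA1 and OsrbcS, and the markers did not move together. RCABP69 read 4163 to 4751 in flag and 1085 to 4310 in seedling leaves. In contrast, RCABP89 read 206 to 548 in flag and 429 to 1402 in seedling leaves, and CAB2R 2745 to 5409 and 3524 to 9810. Both shoot meristem markers and 3 of 7 endosperm markers were below the array median on all 8 arrays, while the endosperm gene Gt1 read 1649 to 1919 in flag and 1085 to 1526 in seedling leaves. Among 6 floral markers OsMADS16 read 854 to 1203 in flag and 578 to 710 in seedling leaves, and OsMADS1 read 146 to 225 and 4 to 43.4. The root marker OsIRT1 read 279.7 to 586 and 402 to 613. The part of other organs in the differences below was not tested. These are bulk leaf RNAs, so fewer cells of a type and less RNA per cell cannot be told apart.

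A difference is given throughout as flag minus seedling on the scale log2(signal + 32), averaged over both hours, with its standard error and limma's p adjusted by Benjamini-Hochberg over the 24138 probe sets. A probe set is called where that adjusted p is under 0.05. The fit takes the 2 hours of a replicate number as independent, so its p-values may be too small, as described in the last paragraph. By this rule 6050 probe sets (25.1%) were higher in flag leaves and 6126 (25.4%) in seedling leaves, together 50.4%. Changes of at least 2-fold were less even, with 2202 probe sets (9.12%) higher in flag and 3379 (14.0%) higher in seedling leaves. The 4 flag arrays lay above all 4 seedling arrays for 5167 probe sets (21.4%) and below them for 5402 (22.4%). The median difference over all tested probe sets was 0.04, and 5% of them were below -2.35 and 5% above 1.35. The balance of directions depended on scaling, because arrays set to equal medians gave 8330 higher in flag leaves and 4858 lower, 63.2% against 49.7% on the flag side, and moved the median to 0.20. Differences smaller than that shift are therefore not read as a direction for a gene group.

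**Figure D1:**
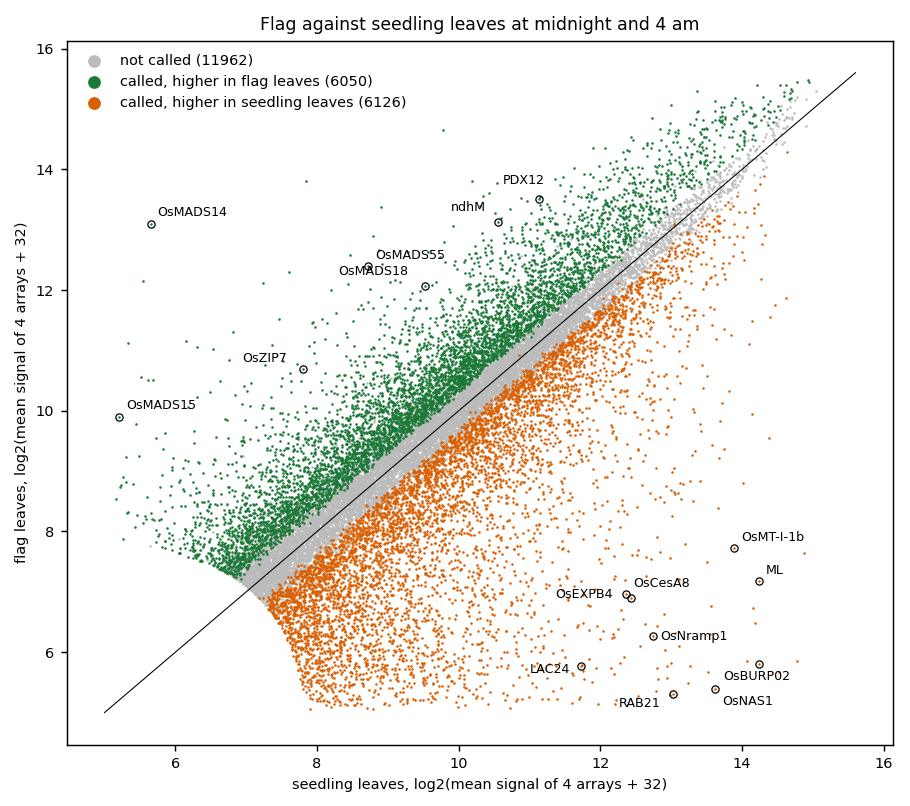
Mean signal of the 4 flag leaf arrays (vertical axis) against the 4 seedling arrays (horizontal axis), both as log2(mean signal + 32), for each of the 24138 tested probe sets. Green points (6050) were called higher in flag and orange points (6126) higher in seedling leaves, and the orange cloud reaches farther from the diagonal, with OsNAS1 and OsBURP02 near the floor in flag leaves.

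Names of genes come from the annotation of the array and RefSeq, and 33 lists by function were described with 1 probe set per gene, that of the highest mean signal. With 1 probe set for each of the 14197 annotated genes tested, 23.7% were called higher in flag and 29.0% in seedling leaves, with a median of -0.02, which is what a list is set against. A gene can pass the filter on low signals through the tissue where it is high, so the counts describe the lists. Some probe sets also match more than 1 gene of a family, and their signal may then be shared. The signals of a gene are listed for each tissue as midnight replicates 1 and 2, then 4 am replicates 1 and 2. Where all 4 arrays of a tissue fell below the array median, the gene is called dim there and the size of its difference depends on the constant 32. Besides the genes for which this is said below, EFE, OsCesA4, RAB16B, OsEXPB2, OsEXPB11, OsIRT2, LAC19, LAC20, KRP6, KIN5A and OsSWEET16 were dim in flag leaves and OsMADS15 in seedling leaves.

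**Figure D2:**
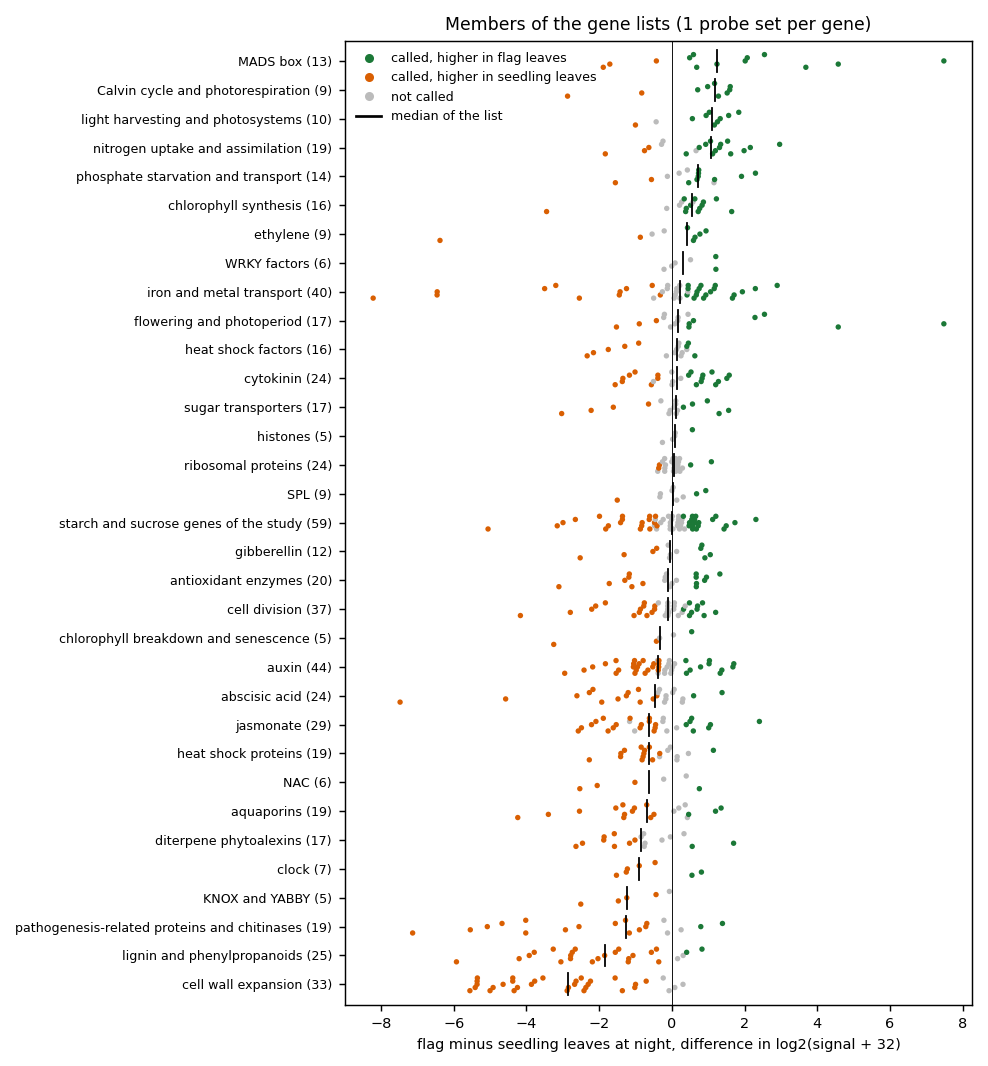
Difference between flag and seedling leaves at night, on the scale log2(signal + 32), for every tested member of the gene lists, with the number of members in brackets and the median of each list as a black bar. Lists are ordered by median, from 1.24 for the MADS box genes at the top to -2.84 for cell wall expansion at the bottom.

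The MADS box transcription factors, many of which act in flowering and floral organ identity, stood at the flag leaf end. Of 31 on the array 13 were tested, and 10 were called higher in flag leaves and 3 in seedling leaves (median 1.24). OsMADS14, of the APETALA1/FRUITFULL-like group that promotes the change to flowering, read 9168, 8927, 8419 and 8453 in flag leaves and 8, 8.1, 31.5 and 25.1 in seedling leaves. It was dim in seedlings, and its difference of 7.48 ± 0.10 (adjusted p = 8.67e-08) was the largest toward flag leaves among the annotated genes that met the naming rule. OsMADS15, of the same group, read 1651, 567, 767 and 716 in flag leaves and 7.2, 6.6, 2.5 and 3.7 in seedling leaves, a difference of 4.58 ± 0.29 (adjusted p = 1.21e-05). Its first midnight replicate was more than the other 3 flag arrays, while every seedling array stayed under 10. OsMADS18, the third of these genes, was present in both tissues at 5122, 3672, 3983 and 4264 in flag leaves and 612, 599.6, 796 and 807 in seedling leaves. Its groups did not overlap, and its means differed 6.05-fold (difference 2.55 ± 0.13, adjusted p = 4.34e-06).

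OsMADS55 and OsMADS47, both relatives of the Arabidopsis floral repressor SVP, went opposite ways. OsMADS55 read 4559, 5527, 5630.4 and 5784 in flag leaves and 383, 448, 377 and 345 in seedling leaves, a 13.8-fold difference of means (difference 3.68 ± 0.12, adjusted p = 5.9e-07). OsMADS47 read 223, 220.3, 216 and 204 in flag leaves and 1178, 852, 773 and 786 in seedling leaves, so that it was lower in flag leaves with no overlap (difference -1.89 ± 0.13, adjusted p = 1.64e-05). OsMADS26 was higher in flag leaves on every array, with a difference of 2.07 ± 0.11 (adjusted p = 5.55e-06). Hd3a, the rice florigen, which is made in leaves and moves to the shoot apex, read 236, 156, 323 and 525 in flag leaves and 38, 5.8, 54.9 and 44.9 in seedling leaves. The florigen groups did not overlap although seedlings were dim (difference 2.29 ± 0.24, adjusted p = 0.000169).

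In the list of flowering and photoperiod genes 7 of 17 tested genes were called higher in flag leaves and 3 in seedling leaves, with a median of 0.17. OsMADS14, OsMADS15, OsMADS18 and Hd3a are members of this list too and are counted in it. The median rose to 0.39 after quantile normalization and to 0.33 with equal medians. Over all 23 tested probe sets of the list, 12 were called higher in flag and 3 in seedling leaves (median 0.47). OsMADS56, related to the flowering regulator SOC1, read 3499.6, 3939.8, 3514 and 4366 in flag leaves and 3106, 3306, 1986 and 1962 in seedling leaves, a difference of 0.59 ± 0.12 (adjusted p = 0.00404). That difference came mostly from 4 am, at 0.98 against 0.21 at midnight. Of 9 tested SPL genes, a family that acts in the aging of the shoot and in panicle form, SPL9 (0.68) and SPL4 (0.93) were called higher in flag leaves, SPL2 (-1.50) in seedling leaves, and 6 were not called. Over all annotated genes 23.7% were called higher in flag and 29.0% in seedling leaves.

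**Figure D3:**
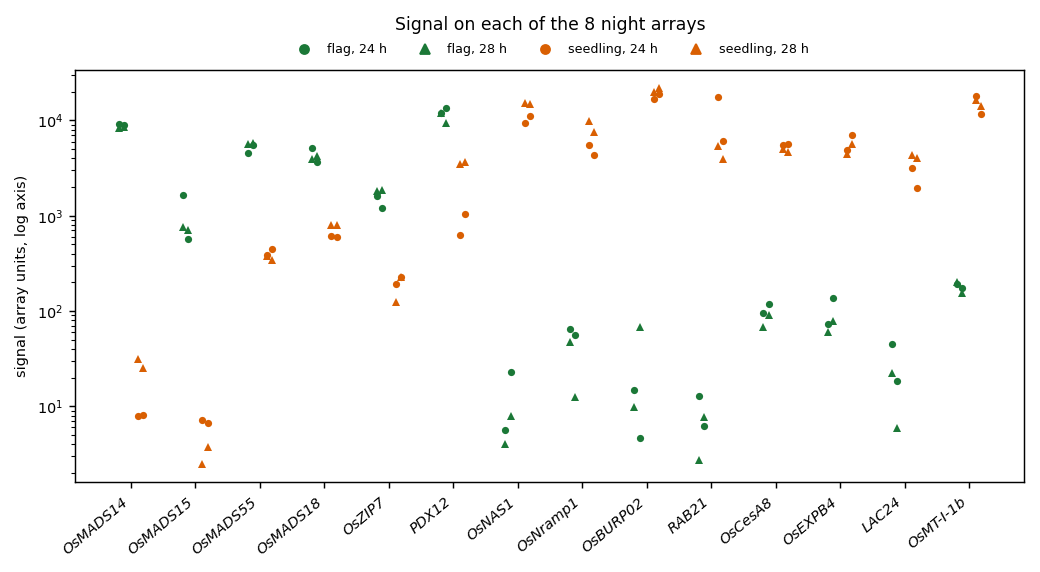
Signal on each of the 8 night arrays, on a log axis, for 14 genes with large differences, with circles for 24 h and triangles for 28 h. The 6 genes on the left were higher in flag leaves and the 8 on the right higher in seedling leaves, and for none of the 14 do the tissues overlap. The rule that named the genes of largest difference asked for no overlap.

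Transcripts of the photosynthetic apparatus were higher in flag leaves in the middle of the night, a lean that was also present at the other hours, as given below. Of 10 genes for light harvesting, photosystems and electron transport, 8 were called higher there and 1 in seedling leaves (median 1.1). The median of this list was 1.42 at midnight and 0.77 at 4 am. GOS5, a subunit of photosystem I, read 28935, 26262, 26205 and 22164 in flag leaves and 5757, 6289, 8479.6 and 8648 in seedling leaves, a 3.55-fold difference of means (difference 1.84 ± 0.11, adjusted p = 9.48e-06). FNR-1, the ferredoxin reductase that passes electrons to NADP, read 28042, 28528, 23975 and 22018 in flag leaves and 7089, 8012, 9692 and 10005 in seedling leaves (difference 1.56 ± 0.10, adjusted p = 1.53e-05). Neither gene overlapped between tissues, and the seedling arrays read more at 4 am than at midnight. ISP, the Rieske iron-sulfur protein of the cytochrome b6-f complex (1.33), LP02 of the oxygen-evolving complex (1.25) and PSB28 of photosystem II (0.94) were called in the same direction. RCABP69, a light-harvesting protein, read 4636, 4608, 4163 and 4751 in flag leaves and 1085, 1274, 4310.1 and 3923 in seedling leaves. Its mean difference of 1.03 thus held at midnight (1.95) and was 0.11 at 4 am, where the groups overlapped. RCABP89, another light-harvesting protein, was the exception, called higher in seedling leaves at -1.0, and CAB2R was not called (-0.43).

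Enzymes of the Calvin cycle and of photorespiration, the pathway that recovers the product of the oxygenase reaction of Rubisco, gave 7 of 9 tested genes higher in flag leaves and 2 in seedling leaves (median 1.17). Their median was 1.44 at midnight and 0.70 at 4 am. OsGLO1, a glycolate oxidase, read 36164, 33714, 30196 and 26103 in flag leaves and 10124, 8266, 13275 and 10418 in seedling leaves (difference 1.59 ± 0.13, adjusted p = 4.97e-05). OsGLO3, another glycolate oxidase, did the reverse at 294, 309, 354 and 178 in flag leaves and 2289, 1892, 2577 and 2176 in seedling leaves (difference -2.87 ± 0.20, adjusted p = 1.84e-05). Neither isoform overlapped between tissues, so the family did not move as 1 group, and OsGLO5 (1.17) went with OsGLO1 while OsGLO4 (-0.83) went with OsGLO3. Fructose bisphosphatase (FBPase, 1.60), the H protein of glycine decarboxylase (GDCSH, 1.52) and Rubisco activase (OsrcaA1, 1.28) were higher in flag leaves. OsrcaA1 read 30367, 34929, 39162 and 37247 in flag leaves and 7829, 10193, 22895 and 24173 in seedling leaves, and the seedling signal was higher at 4 am in both replicates.

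Among genes of chlorophyll synthesis 11 of 16 were called higher in flag leaves and 1 in seedling leaves (median 0.55). The median was 0.84 at midnight and 0.24 at 4 am. The latter is close to the 0.20 that the median of all probe sets reached with equal medians. GluTR, the glutamyl-tRNA reductase at the entry of the pathway, read 6955, 5965, 6471 and 6552 in flag leaves and 2005, 1248, 3101 and 2267 in seedling leaves, with no overlap (difference 1.64 ± 0.18, adjusted p = 0.000195). The gene called the other way was PORA, a light-dependent protochlorophyllide reductase, at 28.4, 18.7, 37.2 and 32.9 in flag leaves and 254, 291, 1363 and 1472 in seedling leaves. It was dim in flag leaves (difference -3.45 ± 0.11, adjusted p = 6.87e-07), whereas its relative PORB was higher there on all 4 arrays (0.87, adjusted p = 0.00062). CHLH, a subunit of magnesium chelatase, was higher in flag leaves on average (1.22) but overlapped at 4 am, with flag values of 1655, 2158, 2617 and 2633 and seedling values of 412, 579.7, 1762 and 1761. SGR, the stay-green protein that acts in chlorophyll breakdown, read 443, 309, 579 and 254 in flag leaves and 3480.2, 3112, 4509 and 4593 in seedling leaves, a 9.9-fold higher mean in seedling leaves (difference -3.25 ± 0.24, adjusted p = 2.61e-05). OsNYC1, a chlorophyll b reductase, was called higher in flag leaves at 0.54, with 4 am values that overlapped, and of the 5 tested breakdown genes 2 were not called.

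Single genes outside the lists added to this side. The chloroplast NDH subunit ndhM read 9324, 10504, 8332 and 7646 in flag leaves and 1100.0, 1126, 1739.9 and 1933 in seedling leaves (difference 2.61 ± 0.11, adjusted p = 1.64e-06). LOC_Os07g05480, annotated as the photosystem I subunit psaK, read 13790.3, 14481, 13206 and 13115 in flag leaves and 2227, 1643, 4020.5 and 2995 in seedling leaves (difference 2.39 ± 0.15, adjusted p = 1.03e-05). PDX12, an enzyme of vitamin B6 synthesis, read 11916, 13452, 11878 and 9371 in flag leaves and 628, 1054, 3497 and 3692 in seedling leaves (difference 2.73 ± 0.18, adjusted p = 1.4e-05). For all 3 the lowest flag array exceeded the highest seedling array, which the rule that named them requires. The PDX12 seedling signal was higher at 4 am than at midnight. METK3, an S-adenosylmethionine synthase (2.48 ± 0.17), AARE2, an acylamino-acid-releasing enzyme (3.19 ± 0.30), AO-1 (3.41 ± 0.49) and LPR2 (2.38 ± 0.14) also reached the 15 largest differences toward flag leaves. AARE2 ranged from 445 to 1686 in flag leaves against 73.3 to 142.5 in seedlings, and AO-1 from 913 to 1297 against 4.1 to 172.

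Nitrogen genes were higher in flag leaves for 13 of 19 tested members, with 3 higher in seedling leaves (median 1.06). GLT2, an NADH-dependent glutamate synthase, read 511, 732, 411 and 533 in flag leaves and 97.9, 144, 1 and 5.1 in seedling leaves (difference 2.96 ± 0.17, adjusted p = 7.35e-06). GLU, the ferredoxin-dependent glutamate synthase of the chloroplast, was far brighter at 26020.3, 27353, 26962 and 24695 in flag leaves and 11804, 9753, 12898 and 11479 in seedling leaves (difference 1.2 ± 0.12, adjusted p = 0.0001). Neither overlapped between tissues, and the flag to seedling step of GLT2 was widest at 4 am, when seedlings read near 0. The ammonium transporters OsAMT1 (1.31) and OsAMT3;3 (1.99) and the urea transporter OsDUR3 (2.16) were higher in flag leaves with no overlap. The glutamate dehydrogenase OsGDH2, which can release ammonium from glutamate, was higher in seedling leaves at 738, 499, 920.5 and 718 in flag leaves and 2440.3, 1987, 3445 and 2664 in seedling leaves (difference -1.83 ± 0.17, adjusted p = 9.03e-05).

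In the phosphate list 8 of 14 tested genes were called higher in flag leaves and 2 in seedling leaves (median 0.71). The phosphate transporter OsPht1;4 read 3867, 3660.0, 2951 and 2489 in flag leaves and 516, 718, 541 and 754 in seedling leaves, with means 5.13-fold apart (difference 2.30 ± 0.16, adjusted p = 1.81e-05). OsSPX1 (0.72) and OsSPX2 (1.17), of the SPX family that senses phosphate status, and OsPHO1;3 (1.91), of the family of phosphate exporters, were called in the same direction. Of the galactolipid synthases, which supply membrane lipids without phosphorus, OsMGD1 was higher in flag leaves (0.74) and OsMGD3 in seedling leaves (-1.55), both without overlap.

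Iron and metal genes were split, and they held the largest difference of any list member. Of 54 on the array 40 were tested, of which 18 were called higher in flag and 11 in seedling leaves (median 0.22). OsNAS1, a nicotianamine synthase, read 5.7, 22.8, 4 and 7.9 in flag leaves and 9396, 10999, 15060.4 and 14744 in seedling leaves, so it was dim in flag leaves alone (difference -8.22 ± 0.15, adjusted p = 1.12e-07). OsNAS2, a second nicotianamine synthase, read 16.1, 81.4, 105 and 16.8 in flag leaves and 4584, 5622, 9753 and 8441 in seedling leaves (difference -6.46 ± 0.37, adjusted p = 7.61e-06). In both genes the seedling arrays were higher at 4 am than at midnight, and the tissues were far from overlapping. OsNAS3, the remaining family member, was called the other way, at 0.61 ± 0.11 (adjusted p = 0.00233). OsNramp1, a metal transporter of the plasma membrane, read 64.9, 55.9, 47.3 and 12.4 in flag leaves and 5518, 4310.0, 9782 and 7543 in seedling leaves (difference -6.46 ± 0.21, adjusted p = 5.9e-07).

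Further genes of iron uptake lay on the seedling side. YSL15, which carries iron bound to phytosiderophores, read 20.1, 51.2, 56.1 and 48.1 in flag leaves and 661, 669, 1124 and 861 in seedling leaves (difference -3.50 ± 0.17, adjusted p = 3.66e-06). OsIRO2, a bHLH factor that activates iron uptake genes, read 248, 259, 523 and 418 in flag leaves and 1561, 1550.4, 2984 and 3078 in seedling leaves (difference -2.54 ± 0.11, adjusted p = 2.12e-06). OsIRT2, an iron transporter, had a difference of -3.19 ± 0.24, whereas OsIRT1 was not called at -0.26 ± 0.25 (adjusted p = 0.416). On the flag leaf side, YSL16, a carrier of metals bound to nicotianamine, read 2269, 2444, 4342 and 4203 in flag leaves and 726, 855, 421 and 564 in seedling leaves (difference 2.30 ± 0.13, adjusted p = 6.64e-06). The zinc transporter OsZIP7 read 1607, 1204, 1826 and 1843 in flag leaves and 190.5, 226, 123 and 227 in seedling leaves, means 8.46-fold apart (difference 2.90 ± 0.19, adjusted p = 1.28e-05). OsMT-I-1b, a metallothionein outside the list, was higher in seedlings at 190.5, 176, 199 and 154 in flag leaves and 18025, 11769, 16476 and 14118 in seedling leaves (difference -6.14 ± 0.16, adjusted p = 3.67e-07). None of these called genes overlapped between the tissues.

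Genes of cell wall expansion were the list farthest to the seedling side. Of 59 on the array, 33 passed the filter, 29 of these were called higher in seedling leaves, none in flag leaves and 4 in neither (median -2.84), and all 29 lay apart from the flag arrays. OsCesA8, a cellulose synthase of the primary wall, read 96.4, 117, 68.6 and 90.4 in flag leaves and 5584, 5679.5, 5061 and 4685 in seedling leaves, means 56.4-fold apart (difference -5.41 ± 0.12, adjusted p = 2.08e-07). OsCesA1, of the same complex, read 186, 193, 164 and 174 in flag leaves and 5164, 4133, 4539 and 3704 in seedling leaves (difference -4.38 ± 0.13, adjusted p = 4.32e-07), and OsCesA3 differed by -3.86. OsCesA4, a cellulose synthase of the secondary wall, read 7.5, 7, 1.9 and 7.5 in flag leaves and 1237, 1201, 1168 and 1125 in seedling leaves (difference -5.0 ± 0.11, adjusted p = 1.85e-07). Its secondary wall partners OsCesA7 (-3.55) and OsCesA9 (-2.24) were called too, so both kinds of wall were represented. OsCslF6, which makes the mixed-linkage glucan of grass walls, read 39.2, 51, 37.5 and 56.7 in flag leaves and 2194, 2046, 1825 and 1618 in seedling leaves (difference -4.64 ± 0.13, adjusted p = 4.04e-07). The beta-expansin OsEXPB4, a protein that loosens grass walls, read 72.8, 138, 60.3 and 78.8 in flag leaves and 4948, 6966, 4457 and 5658 in seedling leaves (difference -5.56 ± 0.20, adjusted p = 9.47e-07). OsEXPB2 (-5.36), OsEXPB3 (-5.36), OsEXPB11 (-5.35) and OsEXPA2 (-4.92) were lower in flag leaves by similar amounts, and OsEXPA10 was not called (0.08).

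Lignin and phenylpropanoid genes gave 21 of 25 tested members higher in seedling leaves and 2 in flag leaves (median -1.85). LAC24, a laccase of the family that polymerises lignin, read 44.6, 18.5, 22.6 and 5.9 in flag leaves and 3152, 1936, 4296 and 3987 in seedling leaves, dim in flag leaves (difference -5.92 ± 0.22, adjusted p = 1.04e-06). Other laccases went the same way, with LAC7 at -3.92, LAC19 at -3.26, LAC20 at -2.74 and LAC10 at -1.85. ZB8, a phenylalanine ammonia-lyase at the entry of the pathway, read 87.3, 83, 406 and 591 in flag leaves and 1049.8, 967, 1075 and 1318 in seedling leaves (difference -2.19 ± 0.15, adjusted p = 1.51e-05), and its flag signal was higher at 4 am. On the flavonoid branch, chalcone isomerase (CHI) read 180.1, 165, 60.2 and 133 in flag leaves and 3621, 3448, 2600.2 and 2147 in seedling leaves (difference -4.20 ± 0.19, adjusted p = 2.46e-06). OsCHS1, the chalcone synthase before it, read 413, 2579, 727 and 1272 in flag leaves and 18349, 12239, 14513 and 12649 in seedling leaves (difference -3.79 ± 0.51, adjusted p = 0.000582). For OsCHS1 the second midnight replicate of flag leaves was well above the first, yet far under every seedling array.

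Other lists of genes of growing tissue had smaller median differences. Of 62 cell division genes on the array 25 were too dim to test, and of the other 37 there were 9 called higher in flag leaves, 14 in seedling leaves and 14 in neither (median -0.11). After quantile normalization and with equal medians 11 were called in flag and 12 in seedling leaves, so the list is not read as leaning to a tissue. Calls of at least 2-fold numbered 1 in flag and 6 in seedling leaves. The members with the smallest p on the seedling side include inhibitors of the cyclin-dependent kinases, with KRP6 at -4.17, SMR1 at -2.10 and KRP5 at -1.04, beside the cyclins OsCycD (-2.79) and CYCD5-2 (-0.90) and the kinesin KIN5A (-2.20). Of 24 ribosomal proteins, a list that includes some of the chloroplast ribosome, 2 were called each way and 20 not at all (median 0.06), but the balance turned with scaling, to 2 in flag and 10 in seedling leaves after quantile normalization and to 8 and 0 with equal medians. CL27 of the chloroplast ribosome was the largest at 1.09 ± 0.12 (adjusted p = 0.000237), with CL18, also of the chloroplast, at 0.52. RPS7 (-0.36) and RPS15 (-0.34) were the 2 called the other way, and both calls were lost without replicate 2 of the seedlings at 28 h (adjusted p = 0.067 and 0.096), the RPS15 call also without any array but replicate 1 of flag leaves at 24 h. Of 5 tested histone genes only H2B.5 was called (0.56). In the list of KNOX and YABBY factors, which act in meristems and in leaf form, 8 of 13 were too dim to test, and 4 of the other 5 were called higher in seedlings and none in flag leaves (median -1.24). Among them were the YABBY genes OsYAB1 at 255, 169, 132 and 179 in flag leaves and 905, 1349.6, 1127 and 1357 in seedling leaves (difference -2.51 ± 0.19, adjusted p = 2.78e-05), OsYAB5 at -1.47 and OsYAB2 at -1.24, while DL of the same family was not called (-0.07).

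Auxin genes were called higher in seedling leaves for 23 of 44 and in flag leaves for 10 (median -0.37). IAA30, of the Aux/IAA repressors, read 136, 166, 219.6 and 313 in flag leaves and 1866, 2131, 1645 and 1454 in seedling leaves (difference -2.95 ± 0.14, adjusted p = 3.35e-06), and IAA8 (-2.42), IAA18 (-2.18) and IAA31 (-1.83) were lower in flag leaves as well. The response factors ARF3 (1.68) and ARF9 (1.33) were higher there. Of 12 gibberellin genes 4 were called each way and 4 not at all, and with equal medians 2 were called in seedling leaves. Of the gibberellin synthesis enzymes OsGA20ox3 was higher in seedlings at 285, 288, 314 and 332 in flag leaves and 2446, 1819, 1830.3 and 1593 in seedling leaves (difference -2.52 ± 0.13, adjusted p = 4.21e-06), with the receptor gid1 at -1.31, and CYP88A5, an earlier enzyme, was higher in flag leaves at 1.06. In the cytokinin list 11 of 24 were called higher in flag leaves and 8 in seedling leaves. The named type-A response regulators OsRR4 (1.58) and OsRR9 (1.51), which are induced by cytokinin, were higher in flag leaves, and the named type-B regulators OsRRB4 (-1.36) and OsRRB5 (-1.35), which carry the signal to target genes, in seedling leaves. The cytokinin-activating enzymes also split, LOG at 1.28 and LOGL1 at -1.56.

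Genes of abscisic acid, the hormone of drought and seed maturation, leaned to seedlings with 13 of 24 called there and 2 in flag leaves (median -0.46). RAB21, a dehydrin that protects cells on drying, read 12.8, 6.2, 2.7 and 7.8 in flag leaves and 17825, 6156, 5404 and 3916 in seedling leaves. The first midnight replicate of seedlings was far above the other 3, and all flag arrays were dim (difference -7.48 ± 0.31, adjusted p = 1.78e-06). RAB16B, a related dehydrin, read 28, 1.4, 5.7 and 2.2 in flag leaves and 2031, 1385, 509 and 492 in seedling leaves (difference -4.57 ± 0.21, adjusted p = 2.65e-06), and RAB16C differed by -1.93. The kinases OsSAPK4 (-1.48) and OsSAPK6 (-1.2) and the bZIP factor OsABF2 (-2.27), which carry the abscisic acid signal, were lower in flag leaves with no overlap. CYP707A5, an enzyme that breaks the hormone down, was called higher in flag leaves at 1.38, the mean of -0.39 at midnight and 3.15 at 4 am.

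In the ethylene list 5 of 9 genes were called higher in flag leaves (3 after quantile normalization) and 2 in seedling leaves. The lone large difference was EFE, the oxidase that forms ethylene from its precursor ACC, at 6.9, 14.6, 4.3 and 28.7 in flag leaves and 3933, 4744, 3058 and 3232 in seedling leaves (difference -6.38 ± 0.18, adjusted p = 4.25e-07). The receptors OsETR2 (0.94), OsETR3 (0.77) and OsERS1 (0.43) were higher in flag leaves by less, and the call of OsERS1 was lost without replicate 2 of the seedlings at 28 h (adjusted p = 0.056). Jasmonate genes were higher in seedling leaves for 16 of 29 and in flag leaves for 7 (median -0.62). The repressors of the TIFY family OsTIFY10c (-2.49), OsTIFY11d (-2.09) and OsTIFY11c (-1.75) and the allene oxide synthase CYP74A2 (-2.57) were lower in flag leaves, each without overlap. LOX8, a lipoxygenase, was the reverse at 2834, 2866, 7059 and 9005 in flag leaves and 1363, 1237, 545 and 627 in seedling leaves (difference 2.41 ± 0.12, adjusted p = 4.21e-06), with the flag signal far higher at 4 am and the seedling signal lower.

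Defence proteins were mostly higher in seedlings, 14 of 19 against 2 in flag leaves (median -1.27). OsGER5, a germin-like protein of the extracellular matrix, read 33.4, 28, 3.9 and 33.7 in flag leaves and 9577, 11755, 5278 and 5896 in seedling leaves (difference -7.13 ± 0.20, adjusted p = 4.06e-07). Flag leaves were dim for it, as they were for OsGER1 (-4.02) and OsGER4 (-2.93), and OsGER8 was lower there too (-4.02). The chitinase OsChia2b read 39.6, 96.9, 29.5 and 35.4 in flag leaves and 3444, 3900.0, 3401 and 3837 in seedling leaves (difference -5.54 ± 0.19, adjusted p = 8.14e-07), and OsChia4a differed by -5.08. The diterpene list holds genes of the antimicrobial phytoalexins of rice and also some of gibberellin synthesis, such as OsKS1 and CYP701A6. Of its 17 tested genes 8 were called higher in seedlings and 2 in flag leaves (median -0.85), with the synthases OsKS10 at -2.64 and OsKS3 at -2.46. Only 6 WRKY factors were in their list, a part of the family. Of these OsWRKY76 (1.21) and OsWRKY24 (1.21) were called higher in flag leaves and 4 were not called.

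Several of the largest seedling differences belong to no list. OsBURP02, a BURP domain protein, read 14.8, 4.6, 9.8 and 67.2 in flag leaves and 16638, 19127, 19908 and 21692 in seedling leaves, the largest difference of any named gene at -8.55 ± 0.26 (adjusted p = 5.35e-07). ML, a mannose-binding lectin, read 62.4, 129.8, 162 and 98.4 in flag leaves and 21184, 17248, 19390.5 and 19233 in seedling leaves (difference -7.10 ± 0.21, adjusted p = 4.58e-07). LTP110-A, a lipid transfer protein, read 32.9, 41.9, 33.7 and 25.7 in flag leaves and 9058, 10259.5, 5548 and 5804 in seedling leaves (difference -6.83 ± 0.11, adjusted p = 1.12e-07). In all 3 the seedling arrays were bright and within 2-fold of each other, while LTP110-A was dim in flag leaves. The Bowman-Birk protease inhibitor ti read 107, 172, 236 and 246 in flag leaves and 8136, 8172, 9953 and 11149.5 in seedling leaves (difference -5.44 ± 0.14, adjusted p = 3.67e-07). Among antioxidant enzymes, 7 each way were called of 20, and the cytosolic superoxide dismutases SodCc2 (-3.11) and SodCc1 (-1.72) were lower in flag leaves while the thylakoid peroxidase OsAPx8 (0.90) and the reductase OsMDAR2 (1.32) were higher. Of 6 tested NAC transcription factors 3 were called higher in seedling leaves, 1 in flag leaves and 2 in neither, with a median of -1.28 at midnight and 0.04 at 4 am. NAC45 (-2.53), OsNAC2 (-2.05) and OsNAC5 (-1.02) were lower in flag leaves and OsNAC3 (0.76) was higher.

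Aquaporins were higher in seedling leaves for 12 of 19 tested genes and in flag leaves for 3 (median -0.69). OsTIP1;1, a water channel of the vacuole, read 1332, 728, 1047 and 694 in flag leaves and 20830.0, 15595, 18506 and 17044 in seedling leaves, means 18.9-fold apart (difference -4.24 ± 0.22, adjusted p = 4.99e-06). OsPIP2;6, a channel of the plasma membrane, read 1217, 639, 484 and 659.5 in flag leaves and 8694, 7248, 7880.5 and 7304 in seedling leaves (difference -3.40 ± 0.21, adjusted p = 1.11e-05). For neither did the tissues overlap, and the flag arrays differed more among themselves than the seedling arrays. OsTIP2;2 (-2.54) went with them, and OsPIP1;3 (1.35) and OsTIP1;2 (1.2) went the other way.

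The study's own list of starch and sucrose genes, which was chosen on these samples and so is no independent evidence, had 19 of 59 called in each direction and a median of 0.01, against 24 in flag and 15 in seedling leaves with equal medians. LOC_Os01g69030, a sucrose-phosphate synthase, read 6205, 7504, 7901 and 8059 in flag leaves and 1029, 871, 2177 and 2322 in seedling leaves (difference 2.31 ± 0.12, adjusted p = 4.17e-06). LOC_Os01g52250, annotated as a glycogen synthase, read 416, 316, 749 and 1012 in flag leaves and 3009.5, 3598, 8151 and 8772 in seedling leaves (difference -3.15 ± 0.15, adjusted p = 3.01e-06), and in both tissues it was higher at 4 am. LOC_Os02g01590, a beta-fructofuranosidase, which splits sucrose, read 57.1, 57.5, 18.9 and 8 in flag leaves and 1007, 1859.6, 2955 and 3357 in seedling leaves (difference -5.06 ± 0.20, adjusted p = 1.36e-06). Of the enzymes of starch breakdown LOC_Os03g55090, a chloroplast glucan phosphorylase (-2.99), and OsDPE1, a disproportionating enzyme (-2.65), were lower in flag leaves with no overlap. Hexokinase HXK4 was higher there (1.49). Of 17 sugar transporters 5 were called higher in flag and 4 in seedling leaves, near the shares of 23.7% and 29.0% over all annotated genes. The named members of the SWEET family fell on both sides, OsSWEET1b at 1.30 against OsSWEET2a at -3.03, OsSWEET16 at -2.22 and OsSWEET2b at -1.61.

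Heat shock proteins, chaperones that keep other proteins folded, were called higher in seedling leaves for 12 of 19 and in flag leaves for 1 (median -0.62). HSP82, of the HSP90 family, read 2191, 1832, 5103 and 5649.7 in flag leaves and 6744, 8165, 8843 and 11976 in seedling leaves (difference -1.40 ± 0.15, adjusted p = 0.000141). OsHsp16.9A, a small heat shock protein, read 70.5, 82.1, 31.4 and 41.1 in flag leaves and 419, 438, 330.2 and 352 in seedling leaves (difference -2.27 ± 0.11, adjusted p = 3.19e-06). Neither overlapped between tissues, and HSP82 was higher at 4 am in both. The gene called toward flag leaves was CLPB2 (1.14, adjusted p = 0.000546). Of 16 heat shock factors, the regulators of these chaperones, 5 were called higher in seedling and 3 in flag leaves (5 each way with equal medians), with OsHsf-05 at -2.33 and OsHsf-13 at 0.63. The shares over all annotated genes were near these, at 29.0% and 23.7%.

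All 7 clock genes were called, 5 of them higher in seedling leaves, and GI, OsLHY and OsPCL1 changed severalfold between the hours in both tissues. GI, a clock component of the evening that acts on flowering, read 1849, 1429, 140.2 and 66.8 in flag leaves and 4798, 4239.7, 399 and 329 in seedling leaves. It fell steeply from midnight to 4 am in both tissues, and at each hour both seedling arrays were above both flag arrays (difference -1.52 ± 0.20, adjusted p = 0.000454). OsPRR95, a pseudo-response regulator that represses morning genes, read 116, 108, 95.5 and 67.2 in flag leaves and 342, 382, 212 and 175 in seedling leaves and was the one clock gene with no overlap over all 8 arrays (difference -1.22 ± 0.13, adjusted p = 0.00015). OsPRR73 (-1.25 ± 0.15) and OsPRR37 (-0.90 ± 0.21), of the same family, were lower in flag leaves too, with differences of -1.95 and -0.96 at midnight and of -0.56 and -0.83 at 4 am.

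OsLHY, the clock factor of the morning, was higher in flag leaves and rising, at 902, 1321, 6092 and 9516 in flag leaves and 621, 576, 4620.1 and 4173 in seedling leaves (difference 0.81 ± 0.18, adjusted p = 0.00768). OsPCL1, which is related to the Arabidopsis evening factor LUX, read 9978, 9119, 2088 and 2082 in flag leaves and 8021, 5738, 1352 and 1349.9 in seedling leaves and was falling (difference 0.55 ± 0.13, adjusted p = 0.0102). OsPRR1, the rice TOC1, had the smallest difference, -0.46 ± 0.15 (adjusted p = 0.0318). That call was lost without any of 5 of the arrays, with a difference of -0.36 to -0.48 and an adjusted p of 0.062 to 0.11: replicate 2 at 24 h and either replicate at 28 h of flag leaves, and replicate 1 of seedlings at either hour. None of the 7 tissue differences changed from 24 h to 28 h past the threshold.

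**Figure D4:**
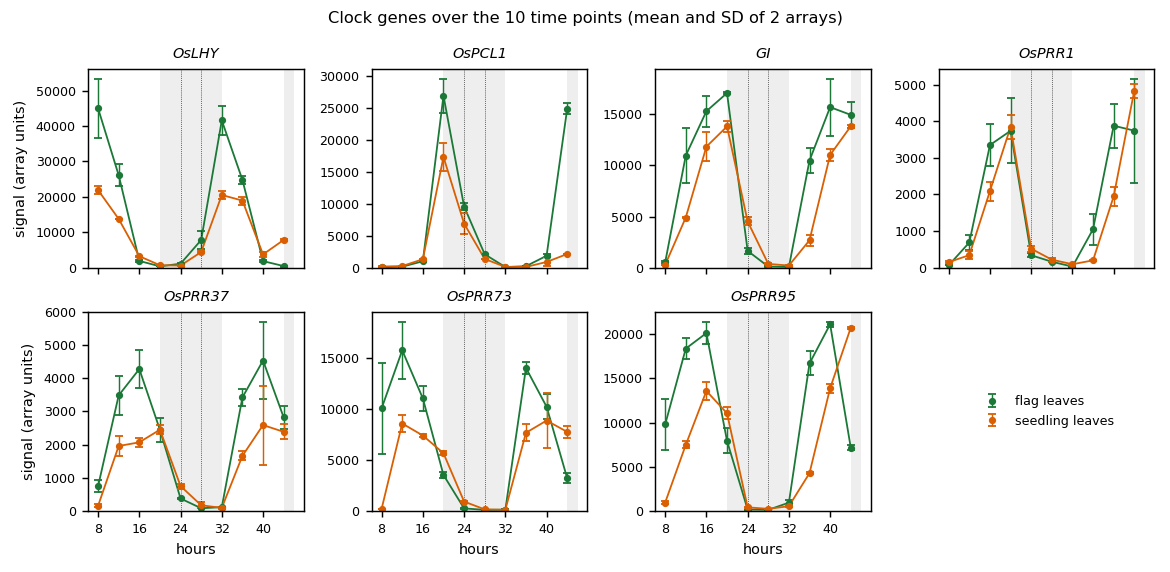
Mean signal of the 7 clock genes at the 10 time points in flag (green) and seedling (orange) leaves, with error bars of 1 SD over 2 arrays, grey for the dark and dotted lines at 24 h and 28 h. At both marked hours the means of GI and the OsPRR genes stand lower and those of OsLHY and OsPCL1 higher in flag leaves.

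To see whether the tissue difference was the same at both hours, the difference at 24 h was subtracted from that at 28 h. It increased past the threshold for 428 probe sets (1.77%) and decreased for 363 (1.50%), together 3.28%. Leaving out 1 array at a time gave 79 to 354 increases and 33 to 219 decreases. OsOPR5, an oxophytodienoate reductase, an enzyme family that includes the jasmonate pathway, read 176, 70.7, 891 and 528 in flag leaves and 1879, 1395, 483 and 518 in seedling leaves. Seedlings fell between the hours while flag leaves rose, a change of 3.93 ± 0.52 (adjusted p = 0.0137). OsOPR1, of the same family, read 226, 161, 1672 and 1105 in flag leaves and 362, 320.5, 201 and 147 in seedling leaves, a change of 3.51 ± 0.36 (adjusted p = 0.00635). It was lower in flag leaves at midnight and higher at 4 am, as was CYP707A5, the abscisic acid hydroxylase, at 195, 321, 2236 and 2094 in flag leaves and 302, 382, 226 and 204 in seedling leaves (change 3.55 ± 0.33, adjusted p = 0.00508).

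OsWGP1, a BURP domain protein, read 1054, 534, 4851 and 10911 in flag leaves and 19886, 15769, 7765 and 7958 in seedling leaves, with a change of 4.39 ± 0.59 (adjusted p = 0.0147) and flag replicates that differed more than 2-fold at 4 am. OsCAD8A, of the cinnamyl alcohol dehydrogenase family that makes lignin precursors, read 62.1, 28.4, 323 and 138 in flag leaves and 3065, 2290.3, 441 and 445 in seedling leaves (change 4.20 ± 0.52, adjusted p = 0.0104). The peroxidase LOC_Os07g48040 went the other way at 2749, 2195, 657 and 556 in flag leaves and 39.8, 54.2, 303 and 258 in seedling leaves, falling in flag and rising in seedling leaves (change -3.96 ± 0.27, adjusted p = 0.00187). The calls of OsWGP1 and OsOPR5 were lost without any 1 seedling array (changes of 4.22 to 4.56 and 3.72 to 4.14), and that of OsCAD8A without replicate 1 at 24 h (3.99) or either replicate at 28 h (4.19 and 4.21) of the seedlings.

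How far the night differs from the rest of the day was tested by subtracting the tissue difference over the other 8 time points from that at 24 h and 28 h, in a fit to all 40 arrays. Of 24514 probe sets tested there, 2842 (11.6%) were further toward flag leaves at night and 2611 (10.7%) further toward seedlings, together 22.2%, a balance that moved from 52.1% to 68.6% on the flag side (3730 and 1705) with arrays scaled to equal medians. The other 8 time points include the start and the end of the night. With the light hours alone as reference, 4209 probe sets were further toward flag leaves at night and 3901 further toward seedlings. Seedling arrays at 44 h stood apart from those at 20 h, the same clock hour, with an r of 0.907 to 0.919, and 1 seedling array of 16 h correlated with 1 of 40 h at 0.991, above every replicate pair. Without the 44 h arrays the counts were 3195 and 2808, and without the 16 h, 40 h and 44 h arrays 3407 and 2730, both chosen after these arrays had been seen. The labels of the second and the eighth samples, among the other hours, read midnight where the study gives noon, and noon was used.

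Several lists that leaned at night leaned the same way at the other hours, so their lean was not particular to the night. The median tissue difference at the other hours was 1.15 for MADS box, 0.80 for light harvesting and 0.79 for Calvin cycle genes. It was 0.87 for nitrogen, -1.33 for lignin and -2.80 for cell wall expansion genes. Clock genes, heat shock proteins and aquaporins had the largest median shifts toward seedlings among the lists. Of 19 heat shock proteins 12 were further toward seedlings at night. The list median of the tissue difference was 0.58 at the other hours and -0.62 at night, and the median of the shifts of single genes was -1.34. OsHsp18.6 had a mean signal of 6063 in flag and 382 in seedling leaves at the other hours. At night it was low in both, at 187, 143, 179 and 142 in flag leaves and 238, 156, 358 and 364 in seedling leaves, so that its difference shifted by -3.56 ± 0.26 (adjusted p = 6.39e-10). OsHsp24.1 shifted by -2.92 ± 0.34 and OsHsp16.0 by -3.05 ± 0.28 in the same manner. Of the clock genes 5 of 7 and of the aquaporins 11 of 19 were further toward seedlings at night, with median shifts of -1.70 and -0.63. OsTIP1;1, the vacuolar water channel described above, had means of 18407 in flag and 18222 in seedling leaves at the other hours, and its shift was -3.45 ± 0.28 (adjusted p = 3.49e-09). Its seedling signal at night was near that level, and its flag signal was below it on all 4 arrays.

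**Figure D5:**
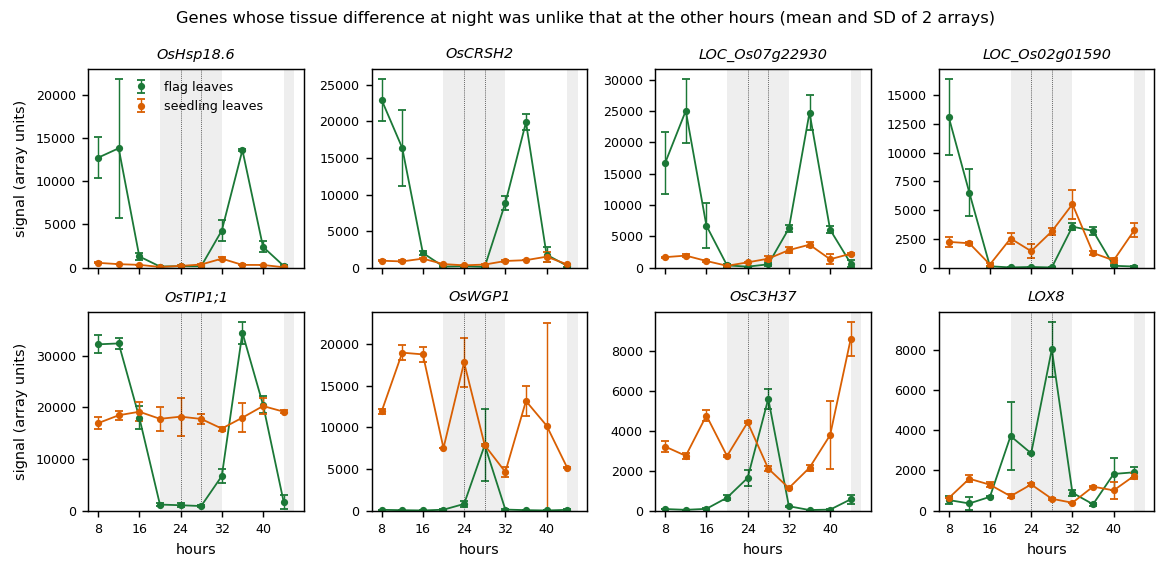
Mean signal at the 10 time points in flag (green) and seedling (orange) leaves for 8 genes whose tissue difference at 24 h and 28 h (dotted lines) was unlike that at the other hours, with error bars of 1 SD over 2 arrays and grey for the dark. The first 5 are low in flag leaves at both marked hours and high there at 8 h, and OsC3H37, OsWGP1 and LOX8 rise in flag leaves at 28 h.

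Carbohydrate enzymes of the study's list shifted on both sides, 18 of 58 further toward seedlings and 9 further toward flag leaves at night. Over all probe sets tested the shares were 10.7% and 11.6%. The study chose this list for a daily pattern in these same samples, which favours such shifts, so the counts are no independent evidence. The beta-fructofuranosidase LOC_Os02g01590 was higher in seedlings at night, with its flag arrays near the array median or below it, and had means of 3351 in flag and 2232 in seedling leaves at the other hours (shift -4.01 ± 0.25, adjusted p = 5.48e-11). The glucan phosphorylase LOC_Os03g55090 shifted by -3.82 ± 0.34, and so did LOC_Os07g22930, a granule-bound starch synthase, by -3.55 ± 0.36. The latter read 159, 145, 377 and 686 in flag leaves and 895, 783, 1738 and 1120.3 in seedling leaves at night, against means of 10819 in flag and 1870.3 in seedling leaves at the other hours. OsCRSH2, an enzyme of the signal nucleotide ppGpp in chloroplasts, shifted by -3.03 ± 0.33 from a mean of 9028 in flag leaves to 243, 131, 91.3 and 115 at night. OsCHS1 (-2.77 ± 0.52) and LOC_Os05g11320, annotated as a metallothionein (-2.94 ± 0.41), completed the 10 largest shifts toward seedlings.

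The largest shift toward flag leaves was that of OsWGP1, at 4.57 ± 0.60 (adjusted p = 3.6e-06), with means of 61.9 in flag and 11302 in seedling leaves at the other hours. OsC3H37, a zinc finger protein of the CCCH type, read 1924, 1351, 5977 and 5251 in flag leaves and 4389, 4468, 2028 and 2182 in seedling leaves at night against 212 and 3645 at the other hours (shift 4.34 ± 0.28, adjusted p = 1.24e-10). In flag leaves every night array of OsC3H37 was above that mean, while its night difference averaged near 0. GLP2, a germin-like protein (3.78 ± 0.36), the glutamate synthase GLT2 (2.91 ± 0.27), the lipoxygenase LOX8 (2.54 ± 0.32), the chitin receptor OsCEBiP (2.77 ± 0.24) and the iron transporter OsIRT1 (2.53 ± 0.38) shifted the same way. GLT2 had means of 2014 and 1344 at the other hours, where its tissue difference on the log scale was 0.05. The remaining 3 of the 10 largest were LOC_Os08g42700, annotated as a resistance protein (2.91 ± 0.36), the glutathione transferase LOC_Os10g38501 (2.84 ± 0.46) and the beta-glucosidase Os1bglu3 (2.51 ± 0.33). The night difference of Os1bglu3 itself was -1.16 (adjusted p = 0.0185), a call that was lost without replicate 1 of the seedlings at 24 h (-1.06) or at 28 h (-1.11).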

How the data were processed

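Signals came from 40 Affymetrix Rice Genome arrays, 1 RNA sample each. The deposited intensity values are linear signals, 1 per probe set, that the authors extracted with GCOS (MAS5 algorithm, version not given in the sources used here) and scaled to a target of 500. MAS5 subtracts mismatch probes, which makes low signals noisy, and no detection call was used here. The 187 control entries were left out. Of the 57194 rice probe sets 22436 have 1 gene in the array annotation or RefSeq (names only, assembly ASM3414082v1), 95 several and 34663 none.

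Tests used limma 3.58.1 (R 4.3.3). Signals were taken as log2(signal + 32), probe sets under a mean of 100 were left out, and the model had means per tissue and hour (4 residual degrees of freedom at night) and Benjamini-Hochberg adjustment. The number of arrays limits the precision. Tested on simulated data made from the night arrays, the night fit over 24138 probe sets recovered 79% of 100 changes of 1 on the log2 scale and 0% of 100 of 0.5. Fewer changes were simulated than called in the data, which makes the adjustment stricter. Tables were made with pandas 2.3.3 (Python 3.11.15) and figures with matplotlib 3.10.9.

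Named genes are the 15 annotated genes with the largest called difference in each direction, with no overlap and a mean of at least 500 in the brighter tissue, up to 6 called genes of each list by adjusted p, all clock genes, the 10 largest shifts in each direction between night and other hours, and the 6 largest between 24 h and 28 h. Other list members that are named were chosen after their values were seen. The members, lists and tests were chosen with earlier results of these data known. Alternatives were constants of 16 and 64, no filter or a minimum of 200, quantile normalization or equal medians, a replicate block, each night array left out, all 40 arrays in the fit, either hour alone, tissue without hour, light hours alone as reference, and all probe sets of a list.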

Additional observations from a re-analysis of the deposited data

Results flagged for a closer look

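On the 4 flag leaf arrays 1 array stood far from the others for OsGER5, where the first replicate at 28 h read 3.9 against 28 to 33.7 (gap over range 0.850), and for LPR2, where it read 3495 against 2322 to 2445 (0.874). Chance flags about 1 in 20 such groups, and the seedling levels of both genes were far away.

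Flagged too were the 6 genes named for the largest called change of the tissue difference between 24 h and 28 h. Passing limma's test of that change was part of their choice. The calls of OsWGP1, OsOPR5 and OsCAD8A were lost without single seedling arrays, as given above. The change was 4.39 for OsWGP1, 4.20 for OsCAD8A, 3.93 for OsOPR5, 3.55 for CYP707A5, 3.51 for OsOPR1 and -3.96 for LOC_Os07g48040, on the log2 scale.

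Between the night and the other 8 hours, the 10 largest called shifts in each direction were flagged. These genes were chosen by limma's test of the shift, so passing it is no further evidence. The first 10 were toward seedling leaves. LOC_Os02g01590 shifted by -4.01, LOC_Os03g55090 by -3.82, OsHsp18.6 by -3.56, LOC_Os07g22930 by -3.55 and OsTIP1;1 by -3.45. OsHsp16.0 shifted by -3.05, OsCRSH2 by -3.03, LOC_Os05g11320 by -2.94, OsHsp24.1 by -2.92 and OsCHS1 by -2.77. Shifts toward flag leaves were 4.57 for OsWGP1, 4.34 for OsC3H37, 3.78 for GLP2, 2.91 for GLT2 and 2.91 for LOC_Os08g42700. They were 2.84 for LOC_Os10g38501, 2.77 for OsCEBiP, 2.54 for LOX8, 2.53 for OsIRT1 and 2.51 for Os1bglu3. Explanations of these patterns were not tested.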

How the results depend on the processing

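Tissue differences of named genes mostly kept their direction and their side of the threshold. Over the alternatives of named genes and lists, 4549 values stayed, 114 lost the call, 5 gained it, 23 list counts moved by over 1.5 times and 7 differences reversed. Of these list counts 6 moved with all probe sets, 10 with equal medians, 5 with quantile normalization and 1 with each other constant, where scalings and constants were added for lists after seeing the data. The reversals came with 1 hour alone, at 24 h for CYP707A5 (-0.39), OsNOL (0.16), Os20ox2 (-0.19), OsNAC3 (-0.46) and OsOPR1 (-0.74), and at 28 h for OsOPR5 (0.43) and OsC3H37 (1.40). Over both hours the difference of OsC3H37 averaged near 0, so it had no clear direction to reverse. With 28 h alone 3430 probe sets were called higher in flag leaves, where fewer arrays enter. Leaving out each array in turn gave 5052 to 5600 higher in flag and 5249 to 6006 higher in seedling leaves. The change from 24 h to 28 h was the least stable, with 79 to 354 probe sets above and 33 to 219 below 0 when 1 array was left out, 74 and 26 without the filter, 643 and 713 with all 40 arrays in the fit, and 557 below 0 at a minimum signal of 200. For the shift from the other hours it was 2306 to 2482 above and 2188 to 2434 below 0 without 1 night array, and 1705 below 0 with equal medians. The cause was not tested.

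Replicate numbers are shared by arrays of a tissue, and their deviations at 24 h and 28 h correlated across probe sets at 0.27 in flag and 0.53 in seedling leaves, with too few pairs to take the numbers as pairing. The main fit takes the 2 hours of a replicate number as independent. Where their deviations are shared, its standard errors and p-values for the mean over both hours may be too small. The replicate block takes the shared part out of the spread, so it is no check on this. With the replicate block 7468 and 6994 probe sets were called at night, 762 above and 879 below 0 between the hours, and 4247 and 3688 against the other hours. Differences of dim genes depend on the constant added.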
